A study of Arabidopsis thaliana with 12 samples.

Results

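Intronic open sites are Tn5 hypersensitive sites (THSs) whose midpoint lay inside a protein-coding gene but in no exon of any annotated transcript. They numbered 1065 of the 23226 THSs in the consensus list, or 4.59% (95% Wilson interval 4.32 to 4.86), and fell in 984 genes. THSs are stretches of chromatin that the transposase Tn5 enters easily in ATAC-seq, such as nucleosome-poor DNA at which transcription factors bind. Polycomb group (PcG) proteins repress genes through histone marks. To relate them to accessibility, the study profiled whole Arabidopsis thaliana seedlings at 10 days after germination (DAG), with 2 replicates of each of 6 genotypes, namely wild-type Col-0 (WT) and the mutants emf1-2, clf28swn7, bmi1abc, ring1ab and lhp1, with no treatment named. The mutants carry mutations in genes for the H2A ubiquitin ligase subunits BMI1 or RING1, the H3K27 methyltransferases CLF and SWN, or the PcG-associated proteins EMF1 and LHP1. The THSs of these 12 samples were merged into a single list with neither genotype nor signal, so no site below can be given to WT or to a mutant, no value has a spread over replicates, and seedling organs and cell types cannot be told apart. The authors also applied a minimum accessibility signal to consensus THSs. The list used here is longer than their filtered set and was taken as the merge made before that step, which was not tested, so all counts and shares refer to the longer list. No test was run on any comparison; the 95% intervals cover counting error only.

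Introns are removed from the transcript, but their DNA can hold control elements, and most Arabidopsis introns are short. A textbook case in this plant is the second intron of AGAMOUS (AG), the MADS-box gene that specifies stamens and carpels. That intron carries an enhancer bound by LEAFY, which recognises CCANTG, and by WUSCHEL, which recognises TTAATGG, and it is needed for PcG repression of AG in leaves. Class I KNOX genes, which maintain the shoot meristem, are further well-known PcG targets.

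The AG intron held 1 THS, chr4:10386289-10386726 (438 bp). It covered bases 2143 to 2580 of the 2999-bp intron, towards its 3′ end. The stretch chr4:10386423-10386722 is printed because it holds the recognition words known from that enhancer. Each sequence is given 5′ to 3′ along its gene, from the RefSeq TAIR10.1 genome, with motif matches on either strand in capitals.
AG intron 2: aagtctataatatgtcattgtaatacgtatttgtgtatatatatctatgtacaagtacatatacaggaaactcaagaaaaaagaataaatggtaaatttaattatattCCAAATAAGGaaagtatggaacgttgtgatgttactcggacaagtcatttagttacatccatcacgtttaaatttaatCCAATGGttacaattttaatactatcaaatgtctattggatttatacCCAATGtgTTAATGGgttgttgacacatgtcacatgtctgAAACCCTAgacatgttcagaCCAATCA
Capitals mark, in order, a CArG box (the site class of MADS-box proteins), CCANTG words, TTAATGG, a telo-box AAACCCTA and CCAATCA. The CCANTG matches numbered 3 because CCAATGG reads as the word on both strands. Of the 6 CCANTG matches of the whole intron, 3 lay in the THS, as did its 1 TTAATGG, its 1 CArG box and 1 of its 2 CCAATCA matches. Other words lay mostly outside it. The THS held 1 of 10 GA repeats (GAGAGA) and 1 of 2 telo-boxes. It held 0 of 4 W-box cores (TTGACC) and 0 of 1 G-box (CACGTG). These words also occur elsewhere. In central 300-bp windows, CCANTG was found in 33.3% of intronic THSs, 32.8% of the other THSs and 25.4% of intron stretches without a THS. TTAATGG stood in 5.45%, 7.80% and 5.18% of these windows, and the CArG box in 2.91%, 2.996% and 2.03%. For CCAATCA the shares were 5.45%, 6.40% and 5.28%.

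Further intronic THSs were found at other developmental regulators, and 4 of them are shown next with the motifs searched in all sites (G-box CACGTG, GA repeat GAGAGA, site II element TGGGCC, W-box core TTGACC, telo-box AAACCCTA and CArG box, each on both strands). AGL24, a MADS-box promoter of flowering, had a THS at chr4:12672734-12673072 in intron 2, printed for chr4:12672753-12673052 on the minus strand, with a CArG box.
AGL24 intron 2: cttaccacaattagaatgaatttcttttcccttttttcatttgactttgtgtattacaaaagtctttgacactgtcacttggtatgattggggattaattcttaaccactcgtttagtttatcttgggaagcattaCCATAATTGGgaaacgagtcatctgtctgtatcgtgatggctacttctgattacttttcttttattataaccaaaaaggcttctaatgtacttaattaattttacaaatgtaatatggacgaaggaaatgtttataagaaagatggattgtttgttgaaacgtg
SHOOT MERISTEMLESS (STM) had a short THS in intron 3, chr1:23059152-23059266 on the minus strand, in which none of these words occurred.
STM intron 3: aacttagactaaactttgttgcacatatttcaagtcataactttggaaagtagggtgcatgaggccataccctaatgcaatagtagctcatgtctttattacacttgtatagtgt
The paralogous KNOX genes KNAT2 and KNAT6 each carried open chromatin in a very long intron 3. For KNAT2 the stretch chr1:26580535-26580834 on the plus strand held a GA repeat, a site II element and a G-box. This stretch was not centred on the midpoint of the THS. These matches lay outside the central 200-bp and 300-bp windows from which motif shares are given.
KNAT2 intron 3: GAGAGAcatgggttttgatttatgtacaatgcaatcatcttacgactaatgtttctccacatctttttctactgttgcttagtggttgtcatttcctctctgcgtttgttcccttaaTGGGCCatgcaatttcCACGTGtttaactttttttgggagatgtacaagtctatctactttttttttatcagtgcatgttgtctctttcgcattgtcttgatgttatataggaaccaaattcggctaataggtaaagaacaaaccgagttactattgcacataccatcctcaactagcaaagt
For KNAT6 the stretch chr1:8298257-8298556 on the minus strand held a run of GA repeats and a G-box.
KNAT6 intron 3: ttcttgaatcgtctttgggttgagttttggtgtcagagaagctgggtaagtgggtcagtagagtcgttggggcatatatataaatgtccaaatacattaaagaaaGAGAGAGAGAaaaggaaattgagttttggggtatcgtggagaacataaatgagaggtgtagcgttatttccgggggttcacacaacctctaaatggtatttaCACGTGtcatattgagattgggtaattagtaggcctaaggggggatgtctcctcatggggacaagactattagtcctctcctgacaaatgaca

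The KNAT2 intron was 4162 bp long and its single THS, chr1:26580458-26581289, measured 832 bp. The KNAT6 intron was 3676 bp long and held 2 THSs, chr1:8298141-8298673 (533 bp) and chr1:8298901-8299450 (550 bp), separated by 227 bp. In both genes the sites lay beyond the middle of the intron, 3972 to 4803 bases from the annotated start of KNAT2 and 3201 to 4510 bases from that of KNAT6, as in AG. The BELL homeobox genes, whose proteins pair with KNOX proteins, added RPL, the replum and inflorescence regulator, with chr5:397831-397934 in intron 2, and BEL1, an ovule regulator, with chr5:16582515-16582805 in an 825-bp intron 2. Altogether 5 of the 21 KNOX and BELL genes held an intronic THS, against 4.39% of all 21847 protein-coding genes with an intron (960 genes). The gene lists were chosen with earlier results of these data known, so an excess over 4.39% cannot be weighed. Of these 21, 3 had an intron of at least 1 kb, and 2 of the 3, KNAT2 and KNAT6, were hosts. Of the 21847 genes, 710 had such an intron, and 510 of these 710 held no intronic THS. Genes with a long intron were thus hosts far more often than the 4.39% over all genes. KNAT1, KNAT3, KNAT4, KNAT5 and KNAT7 held none. Of the 22 floral MADS-box genes, 3 held 1: AG, AGL24 and SVP, a floral repressor with chr2:9580894-9581074 in a 907-bp first intron. The other 19 held none, including FLC, the vernalization-regulated repressor, whose longest intron is 3493 bp, and MAF5, with 2955 bp. Of the 22, 13 had an intron of at least 1 kb and 1 of these, AG, was a host.

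**Figure D1:**
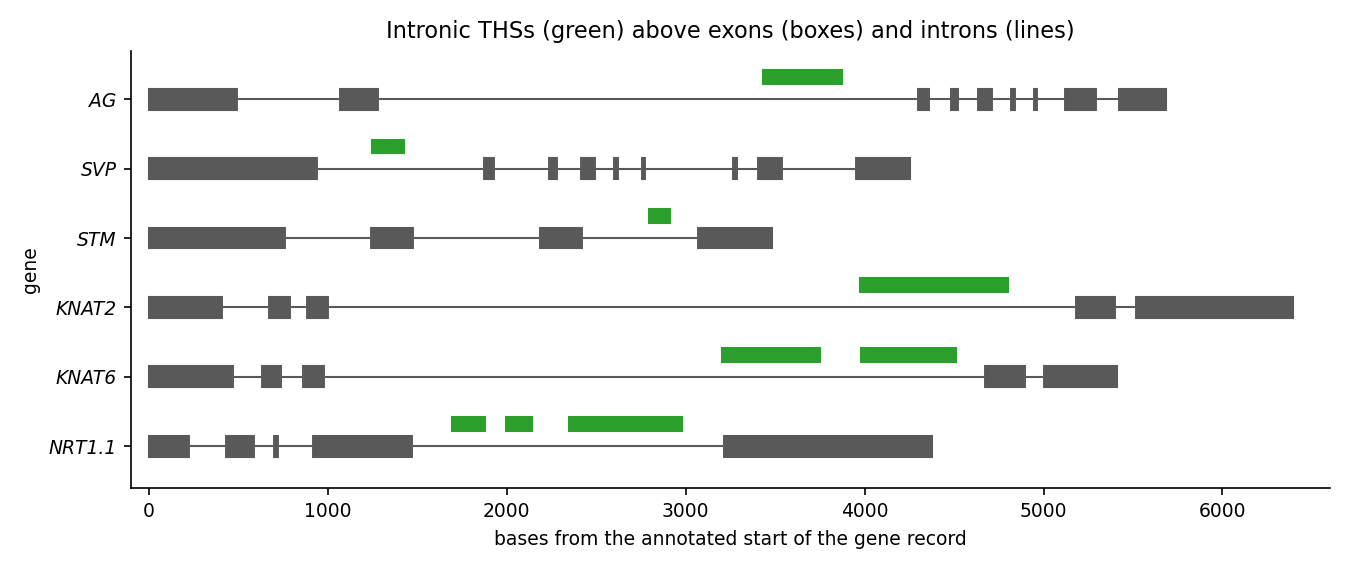
Position of intronic THSs (green bars) in 6 genes, in bases from the annotated start of each gene record; boxes are exons and lines introns of the representative transcript. The THSs of AG, KNAT2 and KNAT6 lie in the 3′ part of introns of 2999, 4162 and 3676 bp, and NRT1.1 has 3 in its last intron.

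None of the 3 remaining gene lists had a host. The leader-intron list holds ubiquitin, actin, elongation factor, profilin and other genes many of whose first introns are known to raise expression, and 0 of its 19 genes with an intron held an intronic THS, and 12 of these 19 had a THS over the start or within 1 kb upstream, which 49.0% of all genes with an intron had. The count was 0 of 3 for genes with introns known to carry heterochromatin, such as IBM1, a histone demethylase gene, and 0 of 10 for the PcG genes mutated in the study together with PLT5, a PLETHORA family gene. At 4.39% over all genes, fewer than 1 host on average would fall in lists of these sizes, so the counts of 0 are near the background.

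Intronic THSs were thinly spread. Their density was 59.7 per Mb of intron-only sequence (exact Poisson interval 56.1 to 63.4), below the 92.5 per Mb of coding exons (89.3 to 95.8), the 322 per Mb of the remaining exonic sequence inside protein-coding genes (312 to 332), and the 272 per Mb outside protein-coding genes (268 to 277). Of all intron-only bases, 14.98% of the 5 chromosomes, 1.65% lay in a THS. Among chromosomes the density ran from 45.3 per Mb on chromosome 3 (38.4 to 53.1) to 67.5 on chromosome 4 (58.1 to 77.9).

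The median length of the sites was 218 bp (95% interval of the median 207 to 233, range 3 to 1497 bp), against 255 bp (253 to 258) for the other 22161 THSs together. Within genes, THSs with a midpoint in a coding exon were shorter, with a median of 154 bp, and outside protein-coding genes the median was 285 bp. Of the intronic THSs, 45.9% were under 200 bp, against 35.6% of the others. Only 432 (40.6%) lay wholly in intron-only sequence, and the median site had 87.5% of its bases there, so many sites that were intronic by midpoint reached into an exon. In introns under 100 bp that share was 54.7%, and 7 of 177 sites were wholly intronic.

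**Figure D2:**
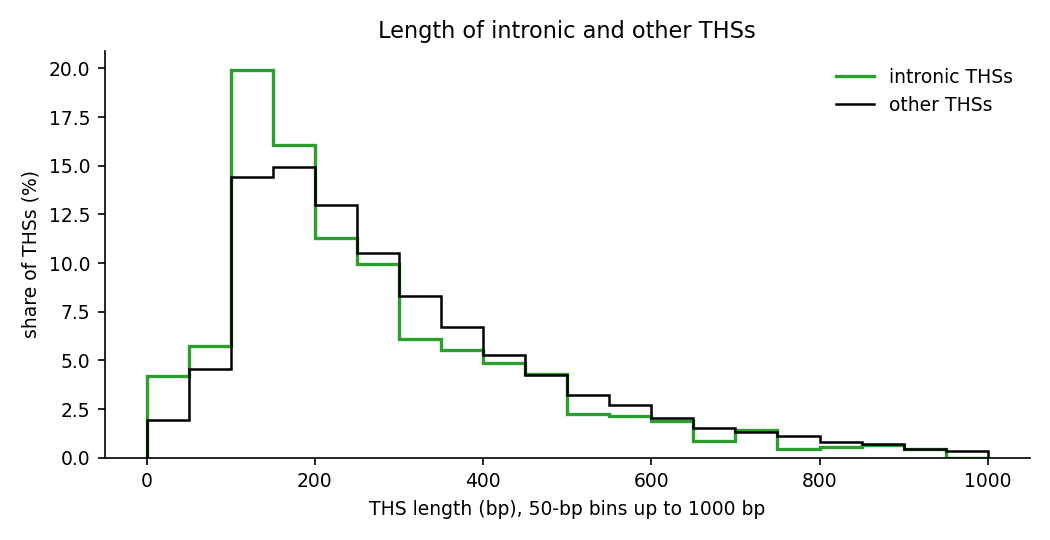
Length of the 1065 intronic THSs (green) and the 22161 other THSs (black) as a share of each set in 50-bp bins up to 1000 bp. Intronic THSs peak between 100 and 150 bp, with 19.9% of them there against 14.4% of the others.

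Introns that held a THS were long. The median length of the 1007 introns that held one was 425 bp (383 to 459), against 99 bp for all 118490 introns of representative transcripts. The share of introns with a THS was 0.298% below 100 bp, 1.05% at 200 to 399 bp, 2.52% at 400 to 599 bp, 7.76% at 600 to 999 bp and 24.4% from 1 kb (21.4 to 27.6). Longer introns offer more sequence, but the density per Mb was higher too. It was 37.0 per Mb (31.8 to 42.9) in introns under 100 bp, 28.6 (23.8 to 34.1) at 100 to 199 bp, 59.8 (49.8 to 71.2) at 400 to 599 bp, 125 (107 to 145) at 600 to 999 bp and 230 (200 to 263) from 1 kb, beside the 272 per Mb outside protein-coding genes. Sites in the shortest introns mostly shared their bases with exons, as given above.

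**Figure D3:**
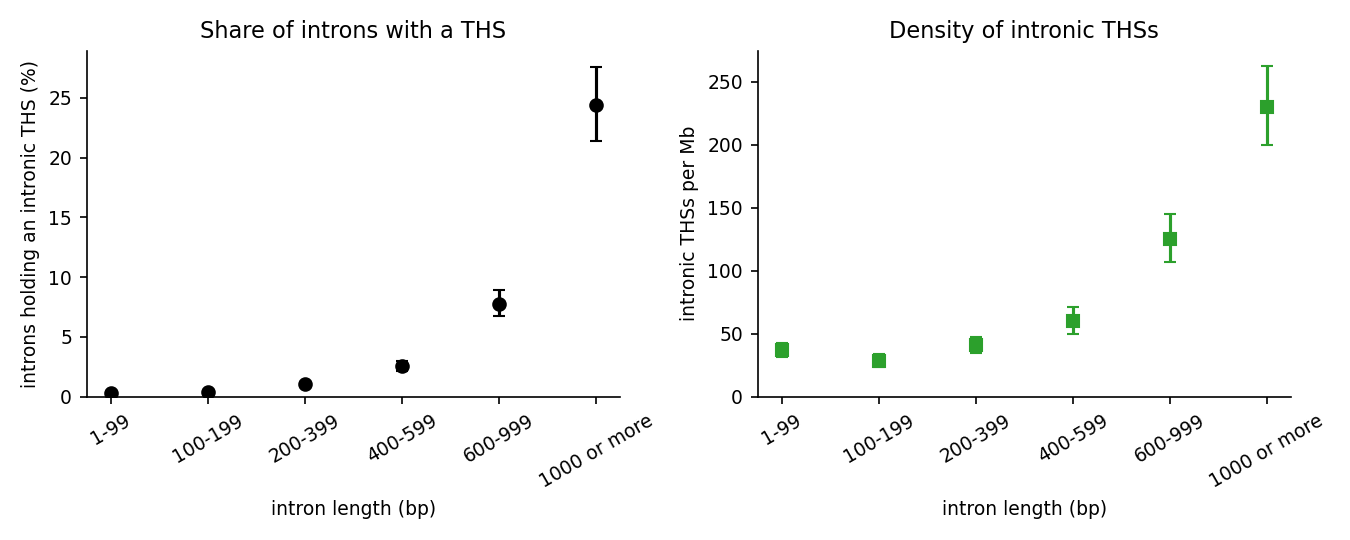
Share of introns that hold an intronic THS (left, percent, 95% Wilson intervals) and intronic THSs per Mb of intron-only sequence (right, exact Poisson intervals) by length of the intron in the representative transcript. Both are highest in introns of at least 1 kb, 24.4% and 230 per Mb.

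First introns held 34.6% of the 1049 sites with an assigned intron (31.8 to 37.5). On representative transcripts alone the share was 32.01%, beside 26.6% of intron-only bases. The density was 67.0 per Mb in first introns (59.8 to 74.8), 83.5 in second introns (73.1 to 94.97) and 33.3 from the seventh on (28.2 to 39.1). First introns are longer, with a median of 147 bp against 97 bp for later ones. Among introns of like length from 600 bp on, first introns were not ahead. Those of 600 to 999 bp held a THS in 6.18% of cases (4.93 to 7.72) and later ones in 9.49% (7.86 to 11.4), and from 1 kb the shares were 22.6% (18.7 to 27.0) and 26.4% (22.0 to 31.2), with overlapping intervals. Introns before the start codon held 8.96% of sites, but 5.79% on representative transcripts, beside 5.10% of intron-only bases. Without sites within 300 bp of a transcript start the share was 2.61% (1.73 to 3.92). The order against introns between coding exons turned with length. Below 100 bp 0.974% of introns before the start codon held a THS (0.447 to 2.11), against 0.288% of coding ones (0.248 to 0.335), and at 100 to 199 bp the shares were 0.868% (0.457 to 1.64) and 0.328% (0.273 to 0.395). At 600 to 999 bp 2.97% of introns before the start codon held a THS (1.52 to 5.76), against 8.52% of introns between coding exons (7.34 to 9.87). From 1 kb the shares were 23.5% and 24.5%. By density, introns after the stop codon were highest, at 137 per Mb (87.0 to 206), though with only 23 sites. The interval takes sites as independent, although several of them lay in the same 2327-bp intron of AT1G79120. Introns before the start codon had 63.3 per Mb (48.0 to 82.0) and those between coding exons 54.5 (51.0 to 58.1).

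Gene records were divided into 5 equal parts from 5′ to 3′. The first held 14.3% of sites and 15.3% of intron-only bases, the next 23.0% and 27.0%, and the last 10.7% and 8.84%. Within introns of at least 600 bp (390 sites) divided in the same way, the first part held 12.1% of sites (9.19 to 15.7) beside 19.8% of intron-only bases, and the part before the last held 25.6% (21.6 to 30.2) beside 20.1%. The sites of AG, KNAT2 and KNAT6 are among these 390.

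**Figure D4:**
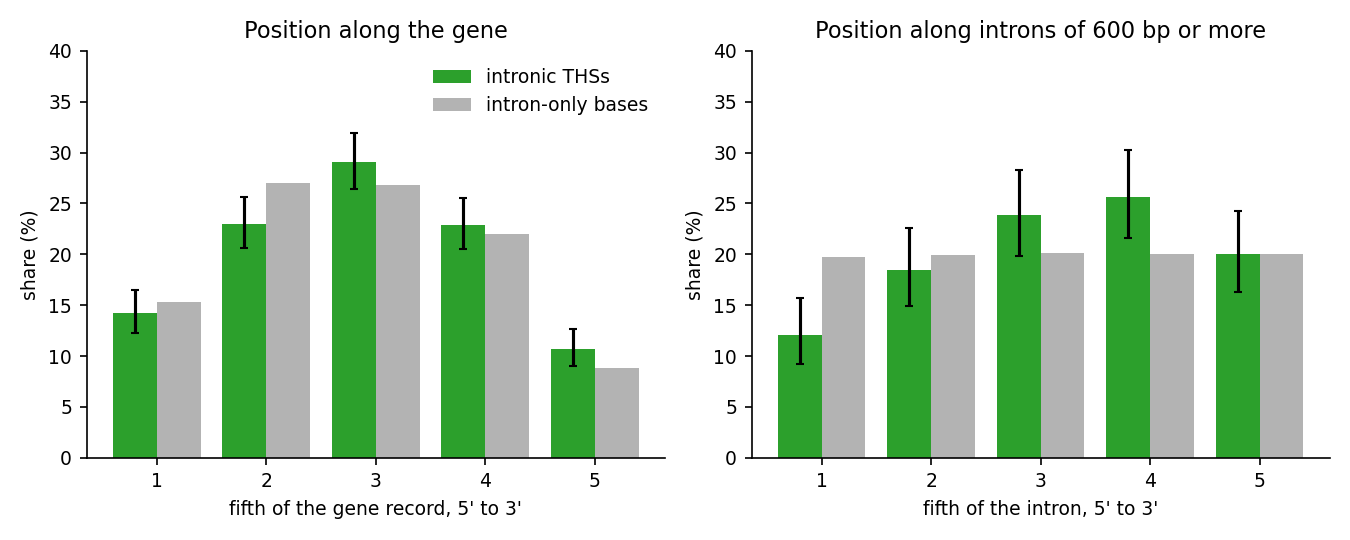
Share of intronic THSs (green, 95% Wilson intervals) and of intron-only bases (grey) in 5 equal parts of the gene record (left) and of introns of at least 600 bp (right), both 5′ to 3′. The first part of long introns holds 12.1% of sites and 19.8% of bases.

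Some intronic sites lay near transcript starts. In all, 221 sites (20.8%, 18.4 to 23.3) came within 300 bp of an annotated transcript start, of which 94 were nearest to an alternative start of the host, 71 to its first start and 56 to a start of another gene. By midpoint, 16.6% of sites were within 300 bp of a start, beside 8.45% of intron-only bases. At the other end 510 sites (47.9%) were more than 1 kb from every start, measured from the edge of the site. The share of intron-only bases that far from every start was not computed, so the 47.9% has no background beside it. Among sites near an alternative start was 1 of TGA4, a bZIP factor gene of the salicylic acid pathway. Its 3 THSs, chr5:3140396-3140904, chr5:3141273-3141604 and chr5:3143041-3143455, lay in a 4873-bp first intron that belongs to a transcript other than the representative one, and the first of them overlapped an alternative start of the gene.

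A THS at the start or upstream, other than the intronic site itself, was about as frequent at hosts as over all genes. Such a THS over the start of the gene record or within 1 kb upstream was present for 48.9% of the 960 hosts (45.7 to 52.0). Of all 21847 genes with an intron, 49.0% had one (48.4 to 49.7). Hosts and other genes were not counted alike. Intronic sites of the host itself were left out, although 38 of them overlapped its first start, so the shares of hosts may be too low. For hosts with a site in an intron of at least 1 kb the share was 44.1% (37.0 to 51.4, 177 genes), and for genes with such an intron and no site 42.0% (37.8 to 46.3, 510 genes).

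Most hosts (916) had 1 intronic THS, 57 had 2, 9 had 3 and 2 had 4. AT5G22090, annotated as a FAF-like protein, held its sites in a 5082-bp intron, from chr5:7316623-7316929 to chr5:7318474-7318719. AT1G79120, annotated as a ubiquitin carboxyl-terminal hydrolase, held its sites in introns after the stop codon. Of these, 3 lay in a 2327-bp intron, 1 of them only 9 bp long, and 1 in the first intron. Hosts with 3 included NRT1.1, the nitrate transporter and sensor. Its 1724-bp intron 4 held sites of 182, 145 and 637 bp at chr1:4106918-4107099, chr1:4107219-4107363 and chr1:4107568-4108204. CHX20, a cation exchanger, held sites of 300, 265 and 141 bp in a 1263-bp intron. CYP707A2, an abscisic acid hydroxylase, had them in introns 4, 7 and 8, and ROT3, a brassinosteroid biosynthesis enzyme, in introns 1, 4 and 8. At AT3G61028 all 3 sites consisted for 63.4% or more of 32-base words found elsewhere in the genome; over all intronic THSs, 24 (2.25%) had more than 50% such words, against 3.72% of the others.

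Among introns of representative transcripts, the longest with a site belonged to AT3G60961 (10234 bp), AT2G34110 (9724 bp), AT5G22090 (5082 bp) and AT5G17165 (4209 bp). At AT3G60961 the THS, chr3:22541334-22541626, lay at the edge of the intron, 15 bp from the first start of the gene, with 30.4% of its bases in intron-only sequence and 63.7% repeated words. The longest sites were at ILL6, annotated as an IAA-amino acid hydrolase (chr1:16836958-16838454, 1497 bp), AT4G31354 (1371 bp), the mannan synthase gene CSLA02 (1283 bp), the amine oxidase gene AT3G43670 (1184 bp), AT1G52905 (1183 bp), IDD5, a zinc finger factor (1168 bp), and OPT4, an oligopeptide transporter (1161 bp). The ILL6 site was 44.5% intronic, that of AT4G31354 53.25%, that of AT3G43670 13.3% and that of AT1G52905 10.5%. Those of CSLA02, OPT4 and IDD5 were 91.4%, 91.6% and 97.1% intronic. The sites of AT4G31354, AT3G43670 and AT1G52905 overlapped the first start of their gene. Repeated words made up 93.3% of the AT4G31354 site and 45.3% of that of AT1G52905.

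Genes on the transcription factor list made up 7.29% of hosts (70 genes, 5.81 to 9.11). Over all genes with an intron the share was 5.24% (4.95 to 5.54). The list was taken by words in the annotated product, such as MADS, WRKY or zinc finger. It can hold zinc finger proteins of other kinds and miss factors whose product lacks the words. By intron length, the intervals of listed and other genes were apart only at 600 to 999 bp. Introns of that length held a THS in 15.5% of cases in listed genes (10.7 to 21.9, 161 introns). In other genes the share was 7.14% (6.10 to 8.34). From 1 kb the shares were 22.8% (13.8 to 35.2) in listed genes and 24.5% (21.4 to 27.8) in others. Groups by a word in the product were chosen after their values were seen. Genes with homeobox or homeodomain in the product were hosts in 21 of 189 cases (11.1%, 7.38 to 16.4). This group takes in genes annotated only as homeodomain-like, so its share is not one of homeobox genes alone. Transporter genes were hosts in 33 of 410 (8.05%, 5.79 to 11.1). F-box genes were hosts in 3 of 378 (0.794%, 0.270 to 2.31). Over all genes with an intron the share was 4.39%, and in the other 9 product groups counted it lay between 1.88% (heat shock or chaperone) and 6.29% (hydrolase), with kinases at 3.45% and uncharacterized proteins at 4.90%. Hosts of the homeobox or homeodomain group included, besides those above, KAN, KAN2 and KAN3, annotated as homeodomain-like. They belong to the KANADI family, which sets the lower side of leaves. Their sites lay in introns of 882 bp, of 933 and 1429 bp, and of 780 bp, in this order. Long introns, of at least 1 kb, were present in 6.35% of the homeobox or homeodomain group, 8.05% of the transporter genes and 1.32% of the F-box genes. Of all 21847 genes with an intron, 710 had one. Other groups had a different order. Of leucine-rich repeat genes, 6.37% had a long intron and 4.155% were hosts. Of hydrolase genes, 2.24% had a long intron and 6.29% were hosts.

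In equal windows, G-box and site II shares of intronic THSs were far above those of introns without a THS, and GA repeat shares were not. Windows were centred on the midpoint and included flanking DNA at sites under 200 bp. Such sites were 45.9% of intronic and 35.6% of other THSs. The G-box, the core site of bHLH and bZIP factors, stood in the central 200 bp of 7.79% of intronic THSs (6.33 to 9.56), 10.6% of other THSs (10.2 to 11.0) and 1.04% of 32647 intron stretches of the same length that touched no THS (0.931 to 1.15). Site II elements, bound by TCP factors, stood in 9.20%, 17.4% and 1.16%, and the W-box core, bound by WRKY factors, in 11.4%, 11.6% and 6.82%. The GA repeat, the site of BPC proteins, which are known to recruit PcG complexes, stood in 13.2% (11.3 to 15.4), close to the 12.8% of introns without a THS and below the 18.9% of other THSs. The telo-box, also a known PcG recruitment motif, was in 1.41% (0.855 to 2.31), against 2.03% of other THSs and 3.45% of introns without a THS. The median GC content was 36.0% in intronic THSs, 36.5% in other THSs and 32.5% in introns without a THS. Where the whole central window was intron-only sequence (494 sites), GC was 33.5%, the G-box share 9.72% (7.41 to 12.7) and the site II share 9.11% (6.88 to 11.97). Away from transcript starts, beyond 300 bp, the G-box share was 6.28% (4.83 to 8.12), and within 300 bp it was 13.6% (9.68 to 18.7).

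**Figure D5:**
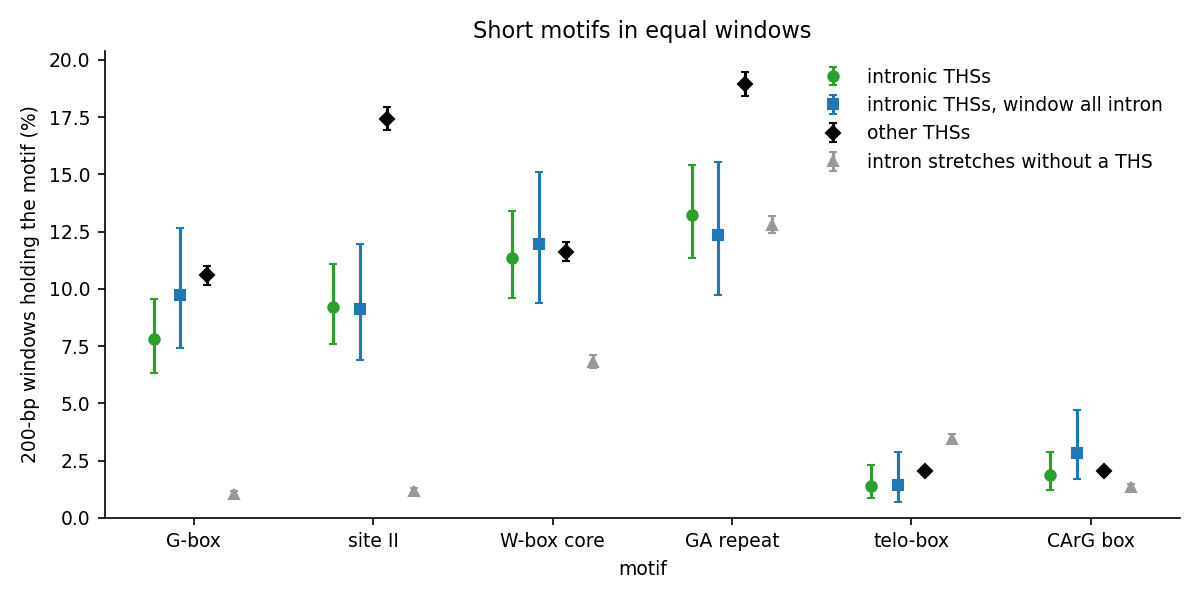
Share of 200-bp windows that hold each motif on either strand, with 95% Wilson intervals, for intronic THSs, those whose window is all intron, other THSs and intron stretches without a THS. For the G-box the shares are 7.79%, 9.72%, 10.6% and 1.04%.

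Sites with several G-boxes show the motif in its setting, and 3 stretches with a G-box are printed. At ROT3, chr4:17189384-17189683 on the minus strand held 3.
ROT3 intron 4: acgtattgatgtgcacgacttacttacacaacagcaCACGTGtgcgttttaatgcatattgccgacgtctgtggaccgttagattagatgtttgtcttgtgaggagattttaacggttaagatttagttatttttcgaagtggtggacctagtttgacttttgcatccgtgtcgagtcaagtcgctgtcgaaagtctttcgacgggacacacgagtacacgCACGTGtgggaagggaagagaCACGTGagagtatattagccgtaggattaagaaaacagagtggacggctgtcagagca
At AT4G36170, a gene of unknown function, chr4:17115042-17115341 on the plus strand held 2.
AT4G36170 intron 2: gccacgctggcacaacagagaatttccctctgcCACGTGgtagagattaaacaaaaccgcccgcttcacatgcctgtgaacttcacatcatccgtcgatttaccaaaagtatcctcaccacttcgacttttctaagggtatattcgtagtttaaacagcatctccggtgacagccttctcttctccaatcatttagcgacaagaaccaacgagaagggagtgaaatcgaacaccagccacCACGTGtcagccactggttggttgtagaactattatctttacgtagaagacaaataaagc
At NRT1.1, chr1:4107736-4108035 on the plus strand held 1, and a GA repeat read on the opposite strand as TCTCTC.
NRT1.1 intron 4: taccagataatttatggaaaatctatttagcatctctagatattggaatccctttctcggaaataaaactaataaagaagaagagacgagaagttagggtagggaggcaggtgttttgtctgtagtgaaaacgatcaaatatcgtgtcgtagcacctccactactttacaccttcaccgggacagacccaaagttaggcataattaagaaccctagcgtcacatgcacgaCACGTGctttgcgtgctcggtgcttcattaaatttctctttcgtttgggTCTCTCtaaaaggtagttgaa
In equal central windows 9 intronic THSs (0.845%) held at least 2 G-boxes, against 1.64% of other THSs. Further sites with 2 G-boxes over their length lay in GA2OX6 and BAS1, which encode enzymes that inactivate gibberellins and brassinosteroids, and in AUR2, an Aurora kinase gene, where the site overlapped the start of another gene.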

How the data were processed

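ATAC-seq libraries were made from nuclei of whole seedlings, with 12 samples in all. The authors trimmed the reads (Trimmomatic), mapped them with Bowtie to TAIR10, removed duplicates (Picard), identified peaks per replicate with MACS2, kept those shared by the replicates of a genotype and merged the genotypes. Versions are not given in the sources used here. The deposited list holds chromosome, start and end coordinates in bp, with no other unit, score or depth. Intersecting replicates can leave pieces of a few bp, and after the merge a site may have been open in 1 genotype only.

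Regions were placed on the RefSeq TAIR10.1 annotation by their midpoints (Python 3.11.15, pandas 2.3.3, numpy 2.4.6, scipy 1.17.1). No region ran past a chromosome end of TAIR10.1. The representative transcript gave intron number, length and class; 65 sites had only an intron of another transcript, and 16 had no single intron. Gene names are those of the annotation. Shares have Wilson intervals, densities exact Poisson intervals and medians order-statistic intervals. The placement rule was checked on simulated regions. The transcription factor list was taken by words in the annotated product. These were transcription factor, MADS, homeobox, WRKY, bHLH, bZIP, MYB, NAC domain, ERF and zinc finger. Named items were all sites in the gene lists, the 10 longest, those of 10 of the 11 genes with at least 3 (by number, then position), the 10 in the longest introns and the 10 with most G-boxes. Sites and lists were chosen with earlier results of these data known.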

Additional observations from a re-analysis of the deposited data

How the results depend on the processing

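The 13 results were recomputed under 143 alternatives; 106 values stayed within the 95% interval of the value given (for the count, within 1.5 times) and 37 did not. Leaving out any 1 chromosome, merging sites less than 150 bp apart, and dropping repeated sites moved none of them out. With THSs of at least 200 bp there were 576 sites, 32.3 per Mb, with a median of 348 bp in introns of 586 bp. Of these sites, 40.4% were in first introns, 13.0% before the start codon and 27.3% within 300 bp of a start. A G-box was in 10.1%, and GC was 35.0%. An upstream THS was present for 35.2% of hosts, but shorter THSs were left out upstream too. The upstream share over all genes was not recomputed in any alternative. With sites wholly in intron-only sequence there were 432, 24.2 per Mb, with a median of 181 bp in introns of 798.5 bp. Of these, 41.3% were in first introns and 12.5% within 300 bp of a start. Of their hosts, 9.67% were on the transcription factor list, and GC was 34.0%. Without sites near a start the density was 47.3 per Mb, 24.9% were in first introns, 2.61% before the start codon, the median length was 199 bp and the G-box share 6.28%. Without sites within 1 kb upstream of a gene the density was 49.1 per Mb and 7.14% were before the start codon; on representative transcripts that share was 5.79%. Of sites in introns under 1 kb, 30.3% were in first introns. A limit of 150 or 500 bp to a start gave 16.9% and 27.2%, and an upstream limit of 500 bp gave 40.2%. Windows of 100 and 300 bp gave G-box shares of 4.23% and 11.0%, GA repeat shares of 6.20% and 22.6%, and telo-box shares of 0.845% and 2.44%, and GC was 35.0% in the former. No paired analysis was possible because the list merges all samples. The list gives no depth, so sites that were not found cannot be called closed.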
